A study of Mus musculus with 75 samples.

Results

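Transcripts of 10 genes of T cells and their checkpoint receptors were followed in mouse lung after bleomycin injury: *Cd3d*, *Cd3e*, *Cd3g*, *Cd4*, *Cd8a*, *Cd8b1*, *Foxp3*, *Ctla4*, *Pdcd1* and *Icos*. They were taken by symbol from a count table of 55536 genes, and all 10 passed the filter on low counts when all groups were filtered together. The samples were the inferior lobe of the right lung of 75 male C57BL/6JRj mice aged 12 to 14 weeks, with 1 bulk RNA library per mouse. Of these, 10 were controls (CTRL), labelled as saline in the sample labels and described as untreated in the methods. The other 65 (BLEO-IPF mice) had been given bleomycin into the trachea once, a cytotoxic drug whose damage to the alveolar lining is followed by fibrosis, and were examined on day 7 (10 mice), days 14, 21, 28 and 35 (12 mice each) and day 42 (7 mice). Only animals that had lost 5 to 17% of body weight by day 6 entered the BLEO-IPF groups, and airways had been rinsed before the lobe was taken, so cells of the airway lumen may be underrepresented. In whole-lung RNA, fewer cells of a type and less RNA per cell cannot be told apart.

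CD3 delta, epsilon and gamma chains form the signalling part of the T cell receptor complex and are carried by T cells of every subset. CD4 and CD8 are the co-receptors that bind MHC class II and class I, and CD8 is a dimer of the products of *Cd8a* and *Cd8b1*. Foxp3 is the transcription factor that defines regulatory T cells (Treg cells). CTLA-4, PD-1 (*Pdcd1*) and ICOS belong to the CD28 family of receptors. CTLA-4 competes with CD28 for CD80 and CD86, PD-1 binds PD-L1 and PD-L2 and dampens receptor signalling, and ICOS is a costimulatory receptor of activated T cells. None of these receptors is strictly limited to conventional T cells: PD-1 is also found on other activated leukocytes, CD4 on some myeloid cells and CD8 alpha on some dendritic cells.

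In the GRCm38 assembly the CD3 genes lie side by side on chromosome 9, *Cd3g* (ENSMUSG00000002033) at chr9:44969572-44980431, *Cd3d* (ENSMUSG00000032094) at chr9:44981786-44987339 and *Cd3e* (ENSMUSG00000032093) at chr9:44998740-45009627. On chromosome 6, *Cd8b1* (ENSMUSG00000053044, chr6:71322788-71337494) neighbours *Cd8a* (ENSMUSG00000053977, chr6:71373427-71379173), and *Cd4* (ENSMUSG00000023274) lies at chr6:124864692-124888221. Chromosome 1 holds *Ctla4* (ENSMUSG00000026011, chr1:60887000-60915832), *Icos* (ENSMUSG00000026009, chr1:60977927-61000320) and *Pdcd1* (ENSMUSG00000026285, chr1:94038305-94052553), and *Foxp3* (ENSMUSG00000039521) lies at chrX:7573644-7595245. All are protein coding. *Foxp3* shares 853 exon bases with *Flicr* on the same strand, whose mean count was 7.42% of that of *Foxp3*. It also shares exon bases with *Ccdc22* (590 bases), *Gm36995* (373 bases) and *Ppp1r3f* (266 bases) on the opposite strand, and the treatment of strand in counting is not given in the sources used here. Neither *Ccdc22* nor *Ppp1r3f* was called on any of the 6 days (log2 fold change 0.13 to 0.30 for *Ccdc22* and -0.08 to 0.29 for *Ppp1r3f*).

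The 250 bases before the RefSeq start sites (GRCm38.p6) of *Foxp3*, *Ctla4* and *Pdcd1* are shown because these were the members with the largest changes. They cover chrX:7579426-7579675 (plus strand, overlapping the noncoding gene *Flicr*), chr1:60908775-60909024 (plus strand, inside the longer Ensembl gene) and chr1:94052554-94052803 (minus strand). Capitals mark a match to TGGAAA, here on the opposite strand, the core bound by NFAT factors, which act downstream of the T cell receptor.
Foxp3: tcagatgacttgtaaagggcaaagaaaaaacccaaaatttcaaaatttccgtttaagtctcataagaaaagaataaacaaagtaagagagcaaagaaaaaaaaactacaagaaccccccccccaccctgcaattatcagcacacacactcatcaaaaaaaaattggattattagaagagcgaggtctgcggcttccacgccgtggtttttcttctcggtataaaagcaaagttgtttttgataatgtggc
Ctla4: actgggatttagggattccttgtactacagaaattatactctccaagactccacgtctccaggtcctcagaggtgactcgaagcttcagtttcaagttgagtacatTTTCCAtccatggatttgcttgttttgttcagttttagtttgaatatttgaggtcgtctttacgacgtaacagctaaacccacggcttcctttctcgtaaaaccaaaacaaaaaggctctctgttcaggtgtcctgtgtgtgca
Pdcd1: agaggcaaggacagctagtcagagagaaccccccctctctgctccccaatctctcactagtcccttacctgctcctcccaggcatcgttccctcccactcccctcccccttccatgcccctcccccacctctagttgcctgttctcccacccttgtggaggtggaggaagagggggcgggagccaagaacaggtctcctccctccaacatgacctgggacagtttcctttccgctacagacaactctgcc
TGGAAA, searched on both strands, occurred once before *Ctla4* and not before *Foxp3* or *Pdcd1*, and 18.6% of 32817 windows of this kind held it. It was also present before *Cd3e* and *Cd3g*, in 3 of the 7 members with a start region in the table (*Cd3d*, *Cd3e*, *Cd3g*, *Cd8a*, *Foxp3*, *Ctla4* and *Pdcd1*). The AP-1 motif TGACTCA, held by 4.46% of all windows, was in 0 of the 7. The same was true of the RUNX motif TGTGGT, which 14.0% of all windows held. An ETS core, CCGGAA, was in 12.0% of all windows and in 0 of the 7. A forkhead motif, GTAAACA, was in 3.16% of all windows and in 0 of the 7. An E-box, CAGCTG, was in 13.01% of all windows and in 0 of the 7. The GATA motif AGATAA, in 9.99% of all windows, occurred before *Cd3g* and no other member.

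Total counts per library ranged from 9240291 to 14665247 (median 10677163), and the members are low in whole lung, with a median over the 75 mice of 15 counts for *Ctla4*, 18 for *Foxp3*, 19 for *Pdcd1*, 34 for *Icos* and 43 to 94 for the other 6. Levels are given in CPM, each count scaled to the library's TMM-adjusted total. The lung genes *Sftpc*, *Sftpb*, *Ager*, *Scgb1a1*, *Cldn18* and *Cdh5* summed to between 37260 and 47760 CPM in CTRL mice and between 8588 and 35000 CPM on day 14. Some libraries stood apart. In 5 mice *Rag1*, a recombinase gene of immature lymphocytes, reached at least 5 CPM: CTRL mice 9 (18.6 CPM), 5 (9.50 CPM) and 8 (5.92 CPM), mouse 7 of day 28 (13.3 CPM) and mouse 3 of day 21 (5.50 CPM), against a median of 0.493 CPM in CTRL and 0.0788 CPM on day 14. *Dntt*, which adds bases at receptor joints, was at 6.72, 3.19, 2.10, 4.66 and 1.83 CPM in the same 5 mice. Results for the members, and the counts printed for lists on days 14 and 42 where they changed, are given with and without these libraries (called the *Rag1* libraries for the lists). Mouse 2 of day 14 held the highest level of that day for all 10 members, among them *Cd3g* at 15.4 CPM and *Foxp3* at 7.88 CPM.

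To ask how T cell transcripts moved from injury through fibrosis to resolution, all days were set against the same 10 CTRL mice, with a member called at an adjusted p under 0.05 in edgeR's quasi-likelihood test over 16221 genes. On day 7, 3 members were higher (*Foxp3*, *Ctla4* and *Pdcd1*) and 0 lower, where 24.8% of all genes tested were called higher and 21.0% lower. Day 14 had 4 members higher (with *Icos*) and 2 lower (*Cd8a* and *Cd8b1*), against 32.4% and 29.9% of all genes. On day 21 the same 4 were higher and *Cd8b1* was lower (28.3% and 25.8% of all genes). By day 28 there were 3 higher, without *Icos*, and *Cd8b1* lower (24.1% and 19.2%), and on day 35 there were 4 higher and *Cd8a* lower (16.9% and 13.1%). Only *Foxp3* and *Pdcd1* were still called on day 42, both higher (13.7% of all genes higher, 11.0% lower). Neither passed the filter on low counts in a fit of only CTRL and day 42, so the other days brought both into the day 42 test. On days 7 and 42, 4 and 3 members had an unadjusted p under 0.05 in either direction, and DESeq2 also called 0 lower. The members called higher, 2 to 4 of 10, and lower, at most 2 of 10, were therefore not far from the shares of all genes. Without the 5 libraries with *Rag1* of at least 5 CPM, 4 members were higher and 1 lower on day 14, 4 higher and 0 lower on days 21 and 28, 5 higher and 0 lower on day 35, and only *Pdcd1* was called on day 42. The median log2 fold change over the members lay between -0.05 and 0.31, and over all genes tested between 0.00 and 0.02.

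**Figure D1:**
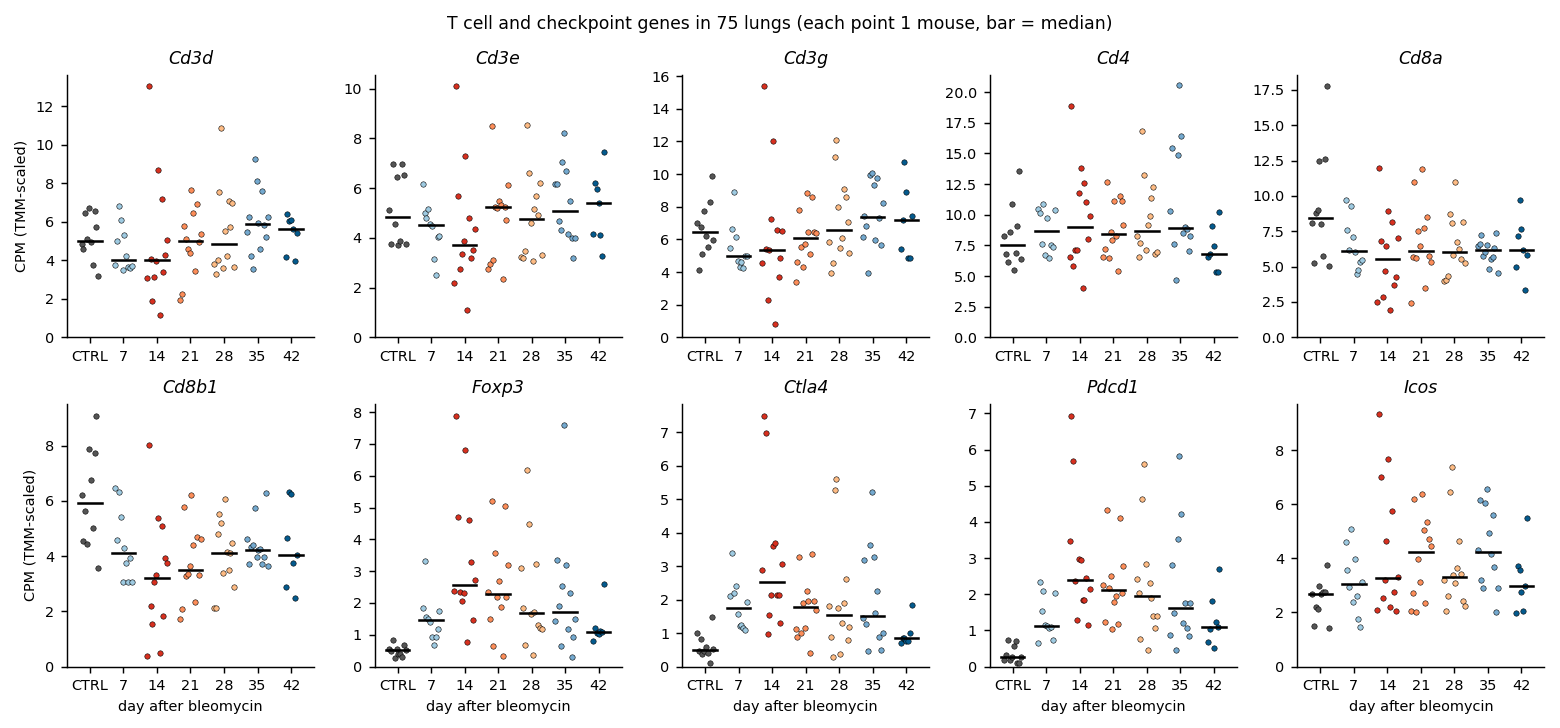
Level of each of the 10 genes in CPM (vertical axis, from 0) in every mouse, by group (CTRL or day after bleomycin); points are mice and bars are medians. *Foxp3*, *Ctla4* and *Pdcd1* lay near the axis in CTRL, with medians of 0.505, 0.505 and 0.269 CPM, and had their highest medians on day 14, while the CD3 panels overlapped throughout.

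*Pdcd1* showed the largest change. CTRL mice spanned 0.0955 to 0.730 CPM (median 0.269, a median of 3.5 counts), and the level on day 7 was 0.646 to 2.34 CPM (median 1.13). It reached 1.15 to 6.93 CPM (median 2.41) on day 14, followed by 1.04 to 4.34 CPM (median 2.11) on day 21. On day 28 the mice lay between 0.466 and 5.59 CPM (median 1.96), on day 35 between 0.470 and 5.83 CPM (median 1.62) and on day 42 between 0.515 and 2.702 CPM (median 1.09). All mice of days 14 and 21 exceeded every CTRL mouse, as did 9 of 10 on day 7, 11 of 12 on days 28 and 35 and 5 of 7 on day 42. The log2 fold change against CTRL was 2.00 ± 0.44 (SE) on day 7 (adjusted p = 0.00014), 3.07 ± 0.41 on day 14 (adjusted p = 2.43e-09) and 1.91 ± 0.48 on day 42 (adjusted p = 0.00201), 8.42-fold on day 14. On days 21, 28 and 35 it was 2.72, 2.69 and 2.62. Without the 5 libraries named above the value of day 42 was 1.62 (adjusted p = 0.0176), and without the 9 libraries with *Rag1* of at least 2 CPM it was 1.34 and did not pass (adjusted p = 0.0738). In a fit of only CTRL and day 42, *Pdcd1* did not pass the filter on low counts.

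*Foxp3* moved in the same direction from a similarly low base. Its level was 0.278 to 0.834 CPM (median 0.505) in CTRL, from 3 counts in the lowest mouse, and 0.672 to 3.31 CPM (median 1.45) on day 7. Day 14 had the highest median, 2.56 CPM (0.756 to 7.88), followed by day 21 with 2.28 CPM (0.334 to 5.21). Medians on days 28 and 35 were 1.68 CPM (0.373 to 6.17) and 1.70 CPM (0.292 to 7.60), and that of day 42 was 1.09 CPM (0.790 to 2.61). The groups overlapped with CTRL on every day, by 1 mouse on days 7, 14 and 42 and by 2 mice on days 21, 28 and 35 that did not exceed the highest CTRL mouse. Log2 fold changes were 1.59 ± 0.45 on day 7 (adjusted p = 0.00306), 2.77 ± 0.43 on day 14 (adjusted p = 8.79e-08, 6.81-fold), 2.34, 2.15 and 2.14 on the next 3 days and 1.33 ± 0.50 on day 42 (adjusted p = 0.0415). The call of day 42 was lost when any 1 of 10 mice was left out (adjusted p up to 0.145, CTRL mice 2, 4, 6, 7, 8 and 10 and mice 2, 3, 5 and 7 of day 42), and in mouse 7 of that day, the highest at 2.61 CPM, *Rag1* was at 2.03 CPM. Without the 5 libraries with *Rag1* of at least 5 CPM the value of day 42 was 1.35 (adjusted p = 0.0730). In a fit of only CTRL and day 42, *Foxp3* did not pass the filter on low counts.

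*Ctla4* ranged from 0.0955 to 1.48 CPM (median 0.505) in CTRL, with the highest value in mouse 9, and from 1.10 to 3.39 CPM (median 1.76) on day 7. On day 14 it lay between 0.975 and 7.49 CPM (median 2.52), and medians then were 1.78 CPM (0.417 to 3.37) on day 21, 1.53 CPM (0.289 to 5.59) on day 28, 1.51 CPM (0.470 to 5.20) on day 35 and 0.863 CPM (0.691 to 1.83) on day 42. More mice overlapped with CTRL than for *Foxp3* and *Pdcd1*: 10 of 12 mice exceeded the highest CTRL mouse on day 14, 6 of 12 on days 28 and 35 and 1 of 7 on day 42. The log2 fold change was 1.56 ± 0.43 on day 7 (adjusted p = 0.00206), 2.33 ± 0.41 on day 14 (adjusted p = 1.41e-06, 5.03-fold), 1.48, 1.66 and 1.71 on days 21, 28 and 35, and 0.63 ± 0.49 on day 42, which did not pass (adjusted p = 0.367).

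The change of *Icos* was smaller, from a higher base. CTRL mice had 1.42 to 3.76 CPM (median 2.68), day 7 mice 1.47 to 5.08 CPM (median 3.03) and day 14 mice 2.05 to 9.32 CPM (median 3.27). Medians were 4.22 CPM (2.00 to 6.39) on day 21, 3.30 CPM (2.03 to 7.39) on day 28, 4.25 CPM (2.02 to 6.56) on day 35 and 2.98 CPM (1.98 to 5.50) on day 42. All groups overlapped with CTRL, and at most 7 of 12 mice (days 21 and 35) exceeded the highest control. The log2 fold change passed the test on day 14 (0.81 ± 0.25, adjusted p = 0.00425), day 21 (0.70 ± 0.25, adjusted p = 0.0168) and day 35 (0.81 ± 0.25, adjusted p = 0.0104). It was 0.57 ± 0.25 on day 28 (adjusted p = 0.0606), and passed there without the 5 libraries with *Rag1* of at least 5 CPM (0.78, adjusted p = 0.0320).

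**Figure D2:**
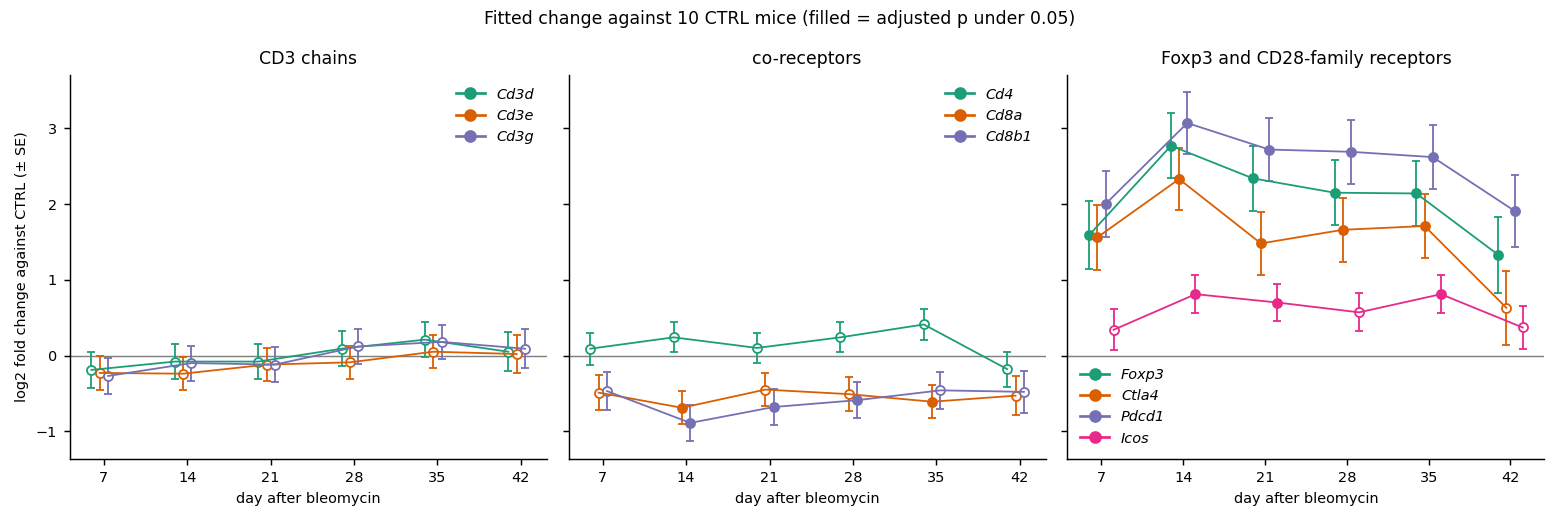
Fitted log2 fold change against the 10 CTRL mice (vertical axis, with SE bars) by day after bleomycin, in 3 panels by role; filled points passed an adjusted p of 0.05 and open points did not. *Pdcd1* peaked at 3.07 on day 14, the CD3 chains stayed between -0.27 and 0.21, and *Cd8a* and *Cd8b1* lay between -0.45 and -0.89.

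None of the CD3 genes was called on any day. *Cd3e* had a median of 4.83 CPM (3.71 to 6.99) in CTRL, 4.53 CPM (2.50 to 6.18) on day 7, 3.71 CPM (1.09 to 10.1) on day 14, 5.22 CPM (2.34 to 8.49) on day 21, 4.75 CPM (3.08 to 8.53) on day 28, 5.07 CPM (3.19 to 8.22) on day 35 and 5.40 CPM (3.27 to 7.43) on day 42. The SD was 1.43 CPM in CTRL (n = 10) and 2.43 CPM on day 14 (n = 12). There 6 mice lay below the lowest control and 2 above the highest, with mouse 2 at 10.1 CPM. On the other days the SD ran from 1.04 CPM (day 7) to 1.74 CPM (day 21). The difference in spread was not tested. On day 14 the log2 fold change was -0.24 for *Cd3e* (95% interval -0.68 to 0.19), -0.08 for *Cd3d* (-0.54 to 0.38) and -0.10 for *Cd3g* (-0.55 to 0.35). Over the 6 days the fitted values ran from -0.27 to 0.21, and the unadjusted p was 0.251 or more in every comparison with CTRL. The lowest CD3 levels belonged to mouse 8 of day 14, with *Cd3d* at 1.18, *Cd3e* at 1.09 and *Cd3g* at 0.840 CPM, in which *Ctla4* nevertheless stood at 3.69 CPM and *Pdcd1* at 1.85 CPM.

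*Cd4* did not pass the test on any day either. Its medians were 7.56 CPM (5.52 to 13.5) in CTRL, 8.66 CPM (6.43 to 10.9) on day 7, 8.97 CPM (4.03 to 18.9) on day 14, 8.42 CPM (5.43 to 12.6) on day 21, 8.69 CPM (6.59 to 16.8) on day 28, 8.91 CPM (4.70 to 20.6) on day 35 and 6.81 CPM (5.34 to 10.2) on day 42. The largest log2 fold change was 0.41 ± 0.20 on day 35 (adjusted p = 0.108). Without the 5 libraries with *Rag1* of at least 5 CPM it was 0.66 ± 0.22 and passed (adjusted p = 0.0224, 7 CTRL mice).

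*Cd8a* and *Cd8b1* were lower than in CTRL on all days, and the difference passed the test on some of them. *Cd8a* ranged from 5.07 to 17.8 CPM (median 8.42) in CTRL and from 4.51 to 9.69 CPM (median 6.10) on day 7, 1.93 to 11.9 CPM (median 5.57) on day 14, 2.45 to 11.9 CPM (median 6.10) on day 21 and 4.02 to 11.0 CPM (median 6.01) on day 28. On day 35 all 12 mice, from 4.58 to 7.39 CPM (median 6.18), lay below the CTRL median, and day 42 mice had 3.37 to 9.70 CPM (median 6.19). It fell by 0.69 on the log2 scale on day 14 (SE 0.22, adjusted p = 0.00558) and by 0.61 on day 35 (SE 0.22, adjusted p = 0.0286). Log2 fold changes of days 7, 21, 28 and 42 were -0.49, -0.45, -0.51 and -0.53, none of which passed. The call of day 35 was lost without any 1 of CTRL mice 5, 8 and 9 (adjusted p up to 0.115), and with no filter on low counts (adjusted p = 0.0549). With DESeq2 the value of day 28 passed (adjusted p = 0.0480).

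*Cd8b1* had a median of 5.92 CPM (3.56 to 9.09) in CTRL, 4.12 CPM (3.05 to 6.46) on day 7 and 3.20 CPM (0.398 to 8.04) on day 14, where 7 of 12 mice lay below the lowest control. Later medians were 3.50 CPM (1.74 to 6.21) on day 21, 4.13 CPM (2.11 to 6.06) on day 28, 4.24 CPM (3.66 to 6.30) on day 35 and 4.05 CPM (2.48 to 6.32) on day 42. It fell by 0.89 on day 14 (SE 0.24, adjusted p = 0.00116), by 0.68 on day 21 (SE 0.24, adjusted p = 0.0141) and by 0.59 on day 28 (SE 0.24, adjusted p = 0.0417), all on the log2 scale. The last call was lost when any 1 of 10 mice was left out (adjusted p up to 0.0922, CTRL mice 1, 5, 6, 8 and 9 and mice 1, 2, 6, 9 and 12 of day 28), with library size as the only scaling (adjusted p = 0.0559) and with no filter (adjusted p = 0.0802).

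The CD8 result moved with the libraries that held *Rag1*. The 3 highest *Cd8a* levels among CTRL mice, 17.8, 12.6 and 12.5 CPM, were those of mice 9, 8 and 5, and the same mice had the highest *Cd8b1*, at 9.09, 7.74 and 7.87 CPM. The other 7 CTRL mice had *Cd8a* between 5.07 and 9.00 CPM (median 7.99). When the 5 libraries with *Rag1* of at least 5 CPM were left out, a choice made after seeing the data, the log2 fold change of *Cd8a* on day 14 was -0.30 ± 0.23 (adjusted p = 0.265) and on day 35 -0.22 ± 0.23 (adjusted p = 0.517), and 0 of the 6 days passed. That of *Cd8b1* was -0.65 ± 0.27 on day 14, still called (adjusted p = 0.0338), but -0.51 on day 21 (adjusted p = 0.120) and -0.42 on day 28 (adjusted p = 0.233). Of 10 thymus genes listed, 4 were tested, and *Rag2*, *Ptcra*, *Psmb11* and *Foxn1* had a median of 0 in CTRL. The summed level of all 10, mostly *Cd1d1* (median 10.3 CPM in CTRL) and *Ccl25* (4.11 CPM), which other tissues express too, ranged from 13.4 to 43.2 CPM (median 17.0) in CTRL and from 11.0 to 20.2 CPM (median 15.9) on day 14. *Foxp3*, *Ctla4* and *Pdcd1* kept log2 fold changes of 2.79, 2.39 and 2.78 on day 14 without these libraries.

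**Figure D3:**
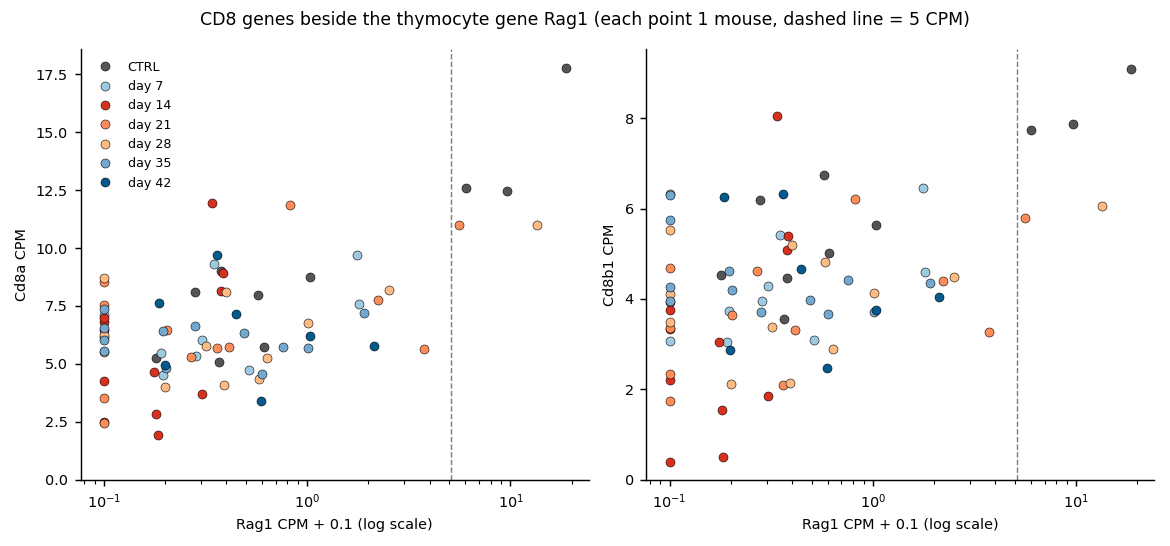
*Cd8a* (left) and *Cd8b1* (right) in CPM against *Rag1* CPM plus 0.1 on a log axis, 1 point per mouse, colored by group; the dashed line marks 5 CPM of *Rag1*. Of the 5 mice to the right of the line 3 are CTRL mice, with *Cd8a* from 12.5 to 17.8 CPM.

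Between days, 2 members were higher on day 14 than on day 7, where 9.48% of all genes were called higher. These were *Foxp3* (log2 fold change 1.18 ± 0.37, adjusted p = 0.0204) and *Pdcd1* (1.07 ± 0.34, adjusted p = 0.0227). Without mouse 2 of day 14, both calls were lost (lowest log2 fold changes 0.99 and 0.87, adjusted p 0.0572 and 0.0706), and without mouse 3 that of *Pdcd1* was. No member was called from day 14 to day 21 (1.03% of all genes in either direction), from day 21 to day 28 (0.727%), from day 28 to day 35 (1.27%) or from day 35 to day 42 (0.00%). At an unadjusted p under 0.05 there were 1, 0, 0 and 2 members, and DESeq2 called 0 in each. From day 14 to day 42, *Ctla4* fell by 1.70 (SE 0.44, adjusted p = 0.00196), *Foxp3* by 1.43 (SE 0.43, adjusted p = 0.00755) and *Pdcd1* by 1.17 (SE 0.39, adjusted p = 0.0170) on the log2 scale, where 18.8% of all genes were called lower. These 3 calls held without any 1 mouse. Thus in the order of medians day 14 stood first for *Foxp3*, *Ctla4* and *Pdcd1* and CTRL last, and among neighbouring days in time the test passed between days 7 and 14 alone, for *Foxp3* and *Pdcd1*, whose mice overlapped between these days.

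Relative to *Cd3e* in the same lung, the receptor genes and *Foxp3* rose on nearly all days. For each mouse the log2 ratio was taken from log2 CPM, and 5 ratios were compared with CTRL on 6 days by two-sided permutation tests, exact for day 42, with adjustment over the 30 tests. The log2 ratio of *Foxp3* to *Cd3e* averaged -2.97 ± 0.43 (SD, n = 10) in CTRL and -0.37 ± 0.37 (SD, n = 12) on day 14, a difference of 2.60 ± 0.17 (SE, permutation adjusted p = 3.75e-05, from the smallest p the resampling can give). All mice of days 7, 14, 21 and 42 exceeded every CTRL mouse in this ratio, and 11 of 12 did on days 28 and 35. On day 42 the difference was 1.04 ± 0.20 (exact permutation test, adjusted p = 0.000103). Mouse 2 of day 14, the highest in the level of both genes, had a ratio of -0.35, near the mean of its group.

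The ratio of *Pdcd1* to *Cd3e* rose by 2.89 ± 0.34 on day 14 (permutation adjusted p = 3.75e-05), and by 1.46 ± 0.35 on day 42 (exact permutation test, adjusted p = 0.00332). *Ctla4* to *Cd3e* rose by 2.35 ± 0.35 on day 14 (permutation adjusted p = 3.75e-05), but its difference on day 42 was 0.59 ± 0.28 (exact permutation test, adjusted p = 0.0746). *Icos* to *Cd3e* rose by 1.01 ± 0.16 on day 14, where 11 of 12 mice exceeded all controls (permutation adjusted p = 3.75e-05), and it had risen by 0.49 ± 0.17 already on day 7 (permutation adjusted p = 0.0111), when the level of *Icos* itself had not passed the test. On day 42 it differed by 0.31 ± 0.17 (exact permutation test, adjusted p = 0.0960). In mouse 8 of day 14 the ratios of *Ctla4*, *Pdcd1* and *Icos* to *Cd3e* were the highest of that day, at 1.61, 0.67 and 0.89, whereas that of *Foxp3* was -0.44.

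The ratio of *Cd4* to *Cd8a* rose most on day 14, by 0.92 ± 0.17, and by 0.53 ± 0.14, 0.56 ± 0.16, 0.68 ± 0.17 and 0.85 ± 0.21 on days 7, 21, 28 and 35 (log2, adjusted p 0.000133 to 0.00296, permutation tests). On day 14, 11 of 12 mice were above every CTRL mouse, and on day 21, 5 of 12 were. The day 42 difference was 0.32 ± 0.19 (exact permutation test, adjusted p = 0.1004). In all, 27 of the 30 differences passed, and 27 did so without the libraries with *Rag1* of at least 5 CPM. A change in this ratio does not say which of its terms moved.

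**Figure D4:**
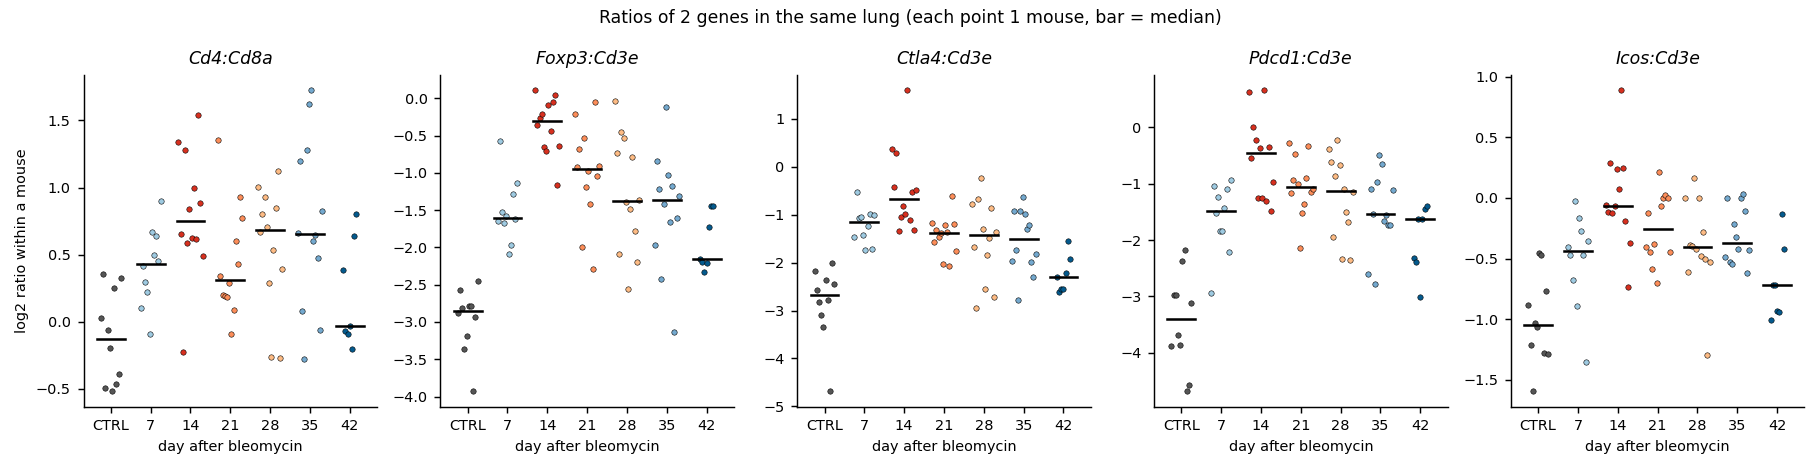
Log2 ratio of 2 genes in the same lung (vertical axis, 1 panel per ratio) by group, with 1 point per mouse and bars at the median. In the *Foxp3* to *Cd3e* panel the CTRL mice lie between -3.93 and -2.45 and the day 14 mice between -1.16 and 0.12.

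Compared per kilobase of exon, *Cd8b1* was the most abundant member in CTRL (median 3.99 CPM per kb), followed by *Cd3d* (2.77), *Cd8a* (2.32), *Cd3g* (1.98), *Cd4* (1.88) and *Cd3e* (1.19). *Icos* (0.781), *Ctla4* (0.217), *Pdcd1* (0.139) and *Foxp3* (0.110) were lower. On day 14 the order of CPM per kb had narrowed, with *Cd3d* and *Cd4* at 2.22, *Cd8b1* at 2.15, *Cd3g* at 1.64, *Cd8a* at 1.53, *Pdcd1* at 1.25, *Ctla4* at 1.08, *Icos* at 0.953, *Cd3e* at 0.909 and *Foxp3* at 0.559. *Pdcd1*, *Ctla4* and *Icos* thus had medians above that of *Cd3e* per length on that day, though their ranges across mice overlapped. All 3 had medians below those of *Cd3d* and *Cd3g*. The length covers all annotated exons of a gene (4080 bases for *Cd3e*), which may be more than the expressed transcript holds.

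Among 18 genes of the T cell receptor chains, kinases, adaptors and pan-T surface proteins, all tested, most were not called. Day 14 had 1 higher and 4 lower, and day 42 had 1 higher and 0 lower, with median log2 fold changes of -0.27 and -0.17. Among all genes, 32.4% and 13.7% were higher and 29.9% and 11.0% lower on these days. *Lcp2*, an adaptor shared with myeloid cells, was higher on all 6 days (0.78 ± 0.12 on day 14, adjusted p = 1.67e-07). *Themis*, a thymocyte selection gene (-0.73 ± 0.24, adjusted p = 0.00698), and *Cd2*, an adhesion receptor (-0.69 ± 0.18, adjusted p = 0.000893), were lower on day 14. Without the libraries with *Rag1* of at least 5 CPM, 2 were higher and 1 lower on day 14.

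On days 7, 14, 21, 28 and 35, 24.8%, 32.4%, 28.3%, 24.1% and 16.9% of all genes were called higher. Of 8 further costimulatory receptors, 3 were higher on each of these days. They were the tumour necrosis factor receptors *Tnfrsf9* (4-1BB), *Tnfrsf4* (OX40) and *Tnfrsf18* (GITR). Their log2 fold changes on day 14 were 2.74 ± 0.36 (adjusted p = 8.38e-10), 1.58 ± 0.26 (adjusted p = 2.45e-07) and 1.17 ± 0.25 (adjusted p = 3.85e-05). *Cd226* (-0.78 ± 0.16) and *Slamf1* (-0.50 ± 0.21) were lower on that day, and *Tnfrsf9* was the only one called on day 42 (2.25 ± 0.39, adjusted p = 1.18e-05). Day 7 had as many lower as higher, with 3 lower (*Cd27*, *Cd226* and *Slamf1*), of which 1 remained without the *Rag1* libraries. *Cd226* was lower on day 21 as well (-0.68 ± 0.16). Among all genes, 21.0%, 29.9% and 25.8% were lower on days 7, 14 and 21. Without the *Rag1* libraries 1 of the 2 lower genes of day 14 was called.

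Inhibitory receptors outside the members were also measured. Of 8 tested, 4 were higher and 0 lower on day 7, 6 higher and 2 lower on day 14, and 5 higher and 0 lower on day 42 (4 higher without the *Rag1* libraries). Of all genes, 24.8%, 32.4% and 13.7% were higher and 21.0%, 29.9% and 11.0% lower on these days. *Vsir*, higher on days 14 and 42, and *Havcr2* had medians of 132.3 and 9.35 CPM in CTRL, against 4.83 CPM for *Cd3e*. Which cells carried these 2 transcripts was not tested. *Lag3*, which binds MHC class II, *Tigit*, which binds CD155, *Havcr2* (TIM-3) and *Cd200r1* were higher on each of the 6 days. *Cd200r1*, also a myeloid receptor, had a median of 4.41 CPM in CTRL and 19.9 CPM on day 14 (log2 fold change 2.14 ± 0.22, adjusted p = 3.23e-13). *Tigit* rose by 1.97 ± 0.47 (adjusted p = 0.000257) and *Lag3* by 1.35 ± 0.22 (adjusted p = 4.68e-07) on day 14, and *Havcr2* by 0.99 ± 0.18 on day 42 (adjusted p = 2.46e-05). *Btla* (-0.59 ± 0.17) and *Cd96* (-0.55 ± 0.21) were lower on day 14, and 1 of them was without the *Rag1* libraries.

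Genes listed as checkpoint and costimulatory ligands were also measured, not all of them ligands of the receptors named here. Of 12 tested, 8 were higher and 1 lower on day 7, and 9 higher and 3 lower on day 14. Day 42 had 7 higher and 0 lower (6 higher without the *Rag1* libraries). Among all genes, 24.8%, 32.4% and 13.7% were higher and 21.0%, 29.9% and 11.0% lower on these days. *Cd80* (log2 fold change 2.00 ± 0.23, adjusted p = 3.37e-11) and *Cd86* (1.56 ± 0.15, adjusted p = 2.63e-14), the ligands of CTLA-4 and CD28, and *Cd276* (B7-H3; 2.00 ± 0.19, adjusted p = 6.3e-14) led on day 14. *Cd274*, which encodes PD-L1, had a median of 21.4 CPM in CTRL and 28.3 CPM on day 14, and was higher from day 14 to day 42. *Icosl*, the ligand of ICOS (-0.36 ± 0.11, adjusted p = 0.00573), *Tnfrsf14* (-0.35 ± 0.15, adjusted p = 0.0325) and *Vtcn1* (-0.68 ± 0.21, adjusted p = 0.00328) were lower on day 14.

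Genes used beside *Foxp3* to describe Treg cells were higher for 5, 7 and 0 of 11 tested on days 7, 14 and 42 (24.8%, 32.4% and 13.7% of all genes). Those with the largest changes of day 14 were *Ccr8* (1.28 ± 0.41, adjusted p = 0.00508) and *Il2ra*, the CD25 chain of the interleukin-2 receptor (1.23 ± 0.27, adjusted p = 6.75e-05), and the integrin *Itgb8*, which epithelial cells also express (1.12 ± 0.17, adjusted p = 8.56e-08). The 7 of day 14 also included *Entpd1* and *Nt5e*, with medians of 144.4 and 164.1 CPM in CTRL, against 0.505 CPM for *Foxp3*. Which cells carried these 2 transcripts was not tested. *Ikzf2* was not called on day 14 (-0.09 ± 0.16). On day 42, *Il2rb* (-0.56 ± 0.20, adjusted p = 0.0348) and *Lrrc32* (-0.39 ± 0.13, adjusted p = 0.0166) were lower, but 1 gene of the list was without the *Rag1* libraries. Among all genes, 11.0% were lower on that day. *Il2rb* and *Lrrc32* had medians of 17.9 and 93.7 CPM in CTRL, and which cells carried them was not tested either.

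Transcription factors of T cell fate went mostly the other way. Of 17 tested, 2 were higher and 9 lower on day 14, and 2 higher and 5 lower on day 42. Among all genes, 29.9% and 11.0% were lower and 32.4% and 13.7% higher on these days. *Batf* (0.92 ± 0.13, adjusted p = 3.64e-09) and *Id2* (0.42 ± 0.08, adjusted p = 8.26e-06) were the ones higher on day 14. *Gata3* (-1.17 ± 0.19), *Eomes* (-1.16 ± 0.27) and *Tbx21* (-0.95 ± 0.28), the factors of type 2 and of cytotoxic and type 1 lymphocytes, were lower on that day (adjusted p 2.97e-07, 0.000152 and 0.00266). Several of these are shared with natural killer (NK) cells. Without the *Rag1* libraries 8 were lower on day 14, and on day 42 there were 1 higher and 2 lower. Of 8 genes of naive and recirculating T cells, 4 were lower on day 14 (3 without the *Rag1* libraries), where 29.9% of all genes were. Among them *Klf2* fell by 0.66 on the log2 scale (SE 0.15, adjusted p = 0.000172). *Klf2* and *S1pr1*, another of the 4, had medians of 196.8 and 382.8 CPM in CTRL, against 4.83 CPM for *Cd3e*. Which cells carried these 2 transcripts was not tested. *Igfbp4*, which stromal cells express too, was higher (1.01 ± 0.17, adjusted p = 6.23e-07).

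Of 12 effector, memory and resident genes tested, 3 were higher and 6 lower on day 14 (5 lower without the *Rag1* libraries). Among all genes, 32.4% were higher and 29.9% lower on that day. The integrin *Itgae* (0.92 ± 0.19, adjusted p = 3.13e-05) and *Cd44* (0.79 ± 0.11, adjusted p = 4.33e-09) were higher, and the cytotoxic genes *Gzma* (-1.54 ± 0.27, adjusted p = 1.7e-06) and *Prf1* (-1.51 ± 0.27, adjusted p = 1.31e-06) lower. *Cd44* had a median of 135.9 CPM in CTRL, against 4.83 CPM for *Cd3e*, and 5 of 6 NK genes were also lower on day 14. Which cells carried *Cd44*, *Gzma* and *Prf1* was not tested. The genes *Il4*, *Il13*, *Il17a* and *Il21* had a median of 0 on day 14 and were not tested, nor were *Ifng*, *Il5* and *Gzmk*.

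**Figure D5:**
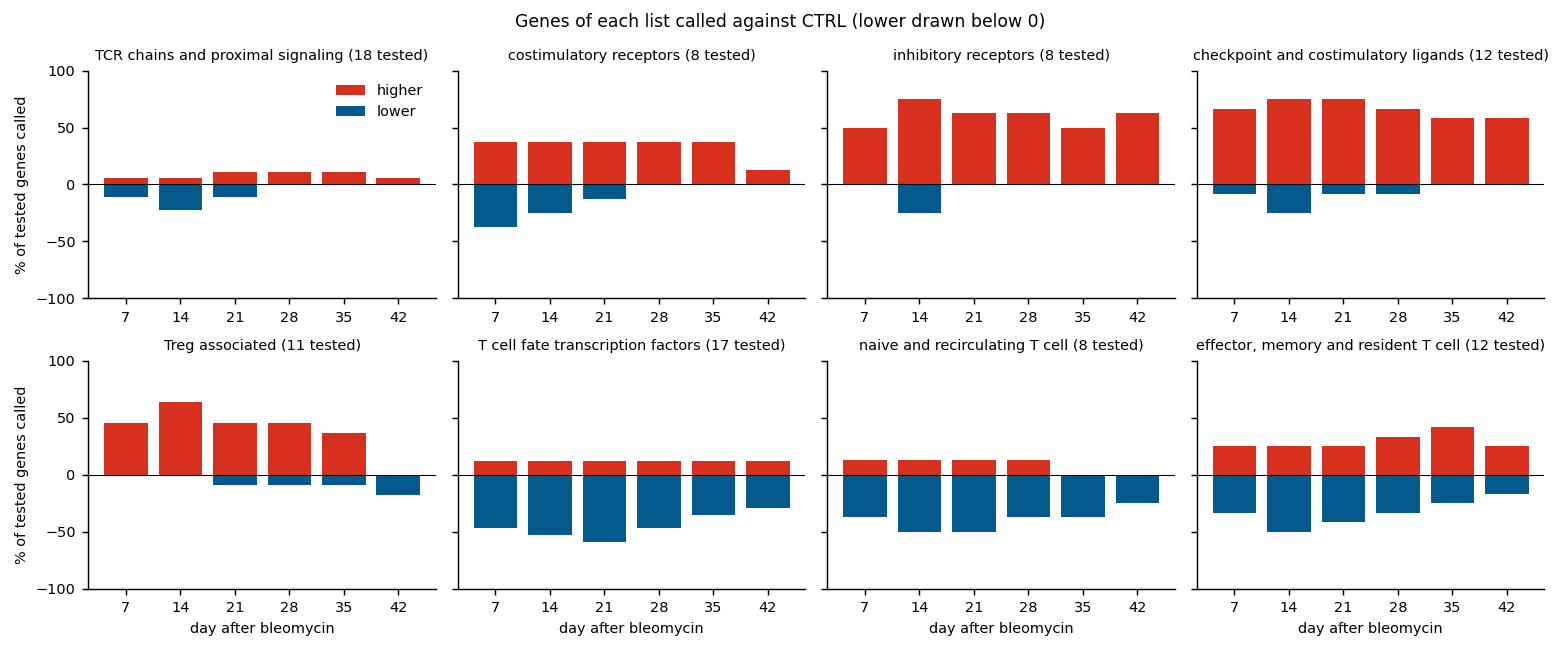
Percentage of the tested genes of each of 8 lists that were called higher (drawn above 0) or lower (drawn below 0) than in CTRL, by day after bleomycin. All libraries are included. On day 14, 6 of 8 inhibitory receptors, 9 of 12 genes listed as ligands and 1 of 18 T cell receptor genes were higher. The shares of all genes, not drawn, were 32.4% higher and 29.9% lower on that day.

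Genes of other leukocytes changed in the same lungs, on a background of 32.4% of all genes higher and 29.9% lower on day 14. Of 9 macrophage genes, 8 were higher on day 14, led by *C1qb* (log2 fold change 3.33 ± 0.27, adjusted p = 5.8e-17), and their summed level went from 421.5 to 481.4 CPM in CTRL to 1004 to 2682 CPM on day 14 and 546.9 to 1123 CPM on day 42. NK genes were lower for 5 of 6 on day 14, where *Klra8* fell by 2.00 (SE 0.29) and *Ncr1* by 1.73 (SE 0.30), and summed to 27.2 to 46.1 CPM in CTRL and 5.46 to 26.7 CPM on day 14. B cell genes were lower for 7 of 8 on day 14 (*Pax5* at -1.44 ± 0.29) and for 0 of 8 on day 42, and their sum was highest among CTRL mice in mouse 9. Without the *Rag1* libraries the number of B cell genes called lower was 7 on day 14, as with them, but 0 instead of 6 on day 7 and 1 instead of 6 on day 21. Among all genes, 21.0%, 25.8% and 11.0% were lower on days 7, 21 and 42. Dendritic cell genes were mixed on day 14, 4 of 7 higher (*Itgax*, 1.48 ± 0.18) and 2 lower (*Cd209a*, -0.76 ± 0.26). On day 14 most macrophage genes were higher, as were *Pdcd1*, *Ctla4* and *Foxp3*, and most NK and B cell genes lower, as were *Cd8a* and *Cd8b1*. On other days they parted: 0 of 8 B cell genes were lower on day 28, when *Cd8b1* was, or on day 35, when *Cd8a* was. On day 42, 7 of 9 macrophage genes were higher, when *Ctla4* was not called. The part of these cells in the results for the members was not tested. Among genes of most leukocytes, *Laptm5* (1.04 ± 0.12), *Cd52* (0.86 ± 0.13) and *Cd53* (0.85 ± 0.11) were higher on day 14, whereas *Ptprc* (median 170.0 CPM in CTRL, 176.9 CPM on day 14) and *Coro1a* (132.6 and 135.4 CPM) were not called.

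Within groups, the members varied together to different degrees. Pearson's r was computed over the 75 mice on log2 CPM with group means removed, as a description, and all points share the depth and tissue makeup of their library. *Cd3e* was most like *Trac* (r = 0.87), *Lck* (0.86), *Trbc2* (0.86), *Lat* (0.84), *Cd5* (0.82), *Trbc1* (0.81), *Epsti1* (0.80), *Il2rb* (0.78) and *Bcl11b* (0.77), mostly receptor chains and signalling genes of T cells. *Cd8a* was most like *Lck*, *Bcl11b* and *Trbc2* (each 0.82), *Traf3ip3* and *Ms4a4b* (each 0.79), and its r with *Cd8b1* was 0.83. *Foxp3* was most like *Fmod* (0.79), *Dkk2* (0.78), *Nfkbie*, *Fyb* and *Thy1* (each 0.76), and among the members *Ctla4* (0.79). The genes most like *Pdcd1* were *Ms4a7* (0.78), *Basp1*, *Aif1* (each 0.77), *C1qa* and *Apoe* (each 0.76), of which *Ms4a7*, *Aif1*, *C1qa* and *Apoe* are genes of macrophages. Its r was 0.45 with *Cd3e* and 0.09 with *Cd8a*, and 0.76 with *Ctla4*.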

How the data were processed

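RNA from 75 lungs was sequenced. Per the labels and methods, the authors aligned the reads with STAR 2.7.0f to GRCm38 with Ensembl release 96 and deposited counts per gene without normalization; the counting program and its use of strand are not given in the sources used here. All 55536 identifiers matched the annotation (GENCODE M21). Library totals, between 9240291 and 14665247 counts, limit the precision of low genes.

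Groups came from the sample labels. One edgeR 4.0.16 quasi-likelihood fit (R 4.3.3) covered all 75 mice with 1 mean per group, TMM factors, filterByExpr and Benjamini-Hochberg adjustment over 16221 genes, at a threshold of 0.05. SEs were derived from the F statistics. Log2 CPM used a prior count of 2. Ratios were compared by permutation tests (100000 resamples, exact for day 42). All days share the CTRL mice. The steps were tested on simulated counts. Alternatives were DESeq2 1.42.0, 2 other scalings, 2 other filters, only the groups compared, a replicate block, robust fitting, leaving out each mouse (with normalization factors and dispersions kept) and, chosen after seeing the data, leaving out libraries with *Rag1*. Replicates are labelled as separate mice, and none of 375 within-group pairs agreed within sampling noise (lowest chi-square per degree of freedom 3.03).

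The members and gene lists were chosen with earlier results of these data known. Counts for lists are to be read beside the shares of all genes called on the same day, given with the members. Named genes were all members and, per list, the 3 called genes with the largest change on day 14 and on day 42 and any called against the direction of most; *Cd274*, *Havcr2*, *Ptprc*, *Coro1a* and those listed only at 0 or untested were named after their values were seen. The 10 genes most like *Cd3e* and the 5 most like *Cd8a*, *Foxp3* and *Pdcd1* exclude members; a few genes that these rules name are not reported here. Promoters are from RefSeq (GRCm38.p6), with an entry for 7 of 10 members. Figures were made in Python 3.11.15 with matplotlib 3.10.9.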

Additional observations from a re-analysis of the deposited data

Results flagged for a closer look

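Dixon's criterion was applied to each member in the groups of 4 to 10 mice, 30 tests in all, of which chance alone marks about 1 in 20, and it marked 4 mice. Mouse 3 of day 7 had *Cd3g* at 8.93 CPM, with the next mouse at 6.62 CPM. Mouse 2 of day 7 had *Foxp3* at 3.31 CPM, with the next at 1.85 CPM. Mouse 7 of day 42 had *Foxp3* at 2.61 CPM and *Ctla4* at 1.83 CPM, with the next mice at 1.21 and 0.992 CPM.

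The effect against CTRL differed between days for 3 members, which the direct comparison of the days tests. From day 7 to day 14 the log2 fold change was 1.18 for *Foxp3* and 1.07 for *Pdcd1*. From day 14 to day 42 it was -1.43 for *Foxp3*, -1.70 for *Ctla4* and -1.17 for *Pdcd1*.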

How the results depend on the processing

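The number of members called on day 42 depended most on the processing. It was 2 in the fit reported, 1 with no filter on low counts, 1 with the replicate block, 1 without libraries with *Rag1* of at least 5 CPM, 0 without those of at least 2 CPM (9 mice) and 0 in a fit of only the 2 groups compared, where 7 members passed the filter and *Foxp3* and *Pdcd1* did not. When each mouse was left out in turn, the count ranged from 1 to 2 on day 42, 3 to 4 on day 7, 6 to 6 on day 14, 5 to 6 on day 21, 3 to 6 on day 28, 4 to 6 on day 35, 0 to 2 between days 7 and 14 and 3 to 3 between days 14 and 42, and was 0 between the other days compared. The ratios that passed numbered 27 to 28 without any 1 mouse, and 27 with a prior count of 0.5, with other denominators and without the *Rag1* libraries. Replicate numbers did not pair the mice: same-numbered mice had a median correlation of 0.00574 against 0.00183 for others, and 8 of 75 correlated best with their own number. Apart from the day 42 call of *Foxp3*, which was lost, and *Icos* on day 28, which passed, the block changed no call of a member. The low counts of *Foxp3*, *Ctla4* and *Pdcd1* in CTRL, as few as 1 to 3, limit the precision of their fold changes.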

Other observations

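Among all genes, 32.4% were higher and 29.9% lower on day 14, and 13.7% were higher on day 42. Among lymphoid and dendritic genes outside the T cell lists, those of plasma cells were higher for 3 of 4 tested on day 14 and 2 of 4 on day 42. Beside *Jchain* these were *Xbp1* (0.23 ± 0.07) and *Sdc1* (0.36 ± 0.07) on day 14 and *Sdc1* (0.35 ± 0.08) on day 42. The changes of *Xbp1* and *Sdc1* were small, and which cells carried them was not tested. *Jchain*, the joining chain of secreted antibodies, rose by 2.17 ± 0.56 (SE) on the log2 scale on day 14 (edgeR, adjusted p = 0.000574) and by 3.27 ± 0.61 on day 42 (adjusted p = 4.29e-05), when B cell genes were not called. Of 5 genes of group 2 innate lymphoid cells, 2 were higher on day 14: *Arg1*, also a macrophage gene (4.57 ± 0.70, adjusted p = 6.79e-08), and *Areg*, also an epithelial gene (1.03 ± 0.22, adjusted p = 6.37e-05). Plasmacytoid dendritic cell genes had 1 of 4 higher and 2 lower on day 14 (1 lower without the libraries with *Rag1* of at least 5 CPM), with *Siglech* at -0.71 ± 0.25 (adjusted p = 0.0112). Of 3 lymph node genes tested (2 higher and 1 lower without these libraries), the B cell chemokine *Cxcl13* was higher (2.95 ± 0.43, adjusted p = 1.75e-08) and *Chst4*, of high endothelial venules, lower (-0.83 ± 0.23, adjusted p = 0.00134) on day 14.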
